A study of Homo sapiens with 2 samples.

Results

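The genes described here are 10 ribosomal protein genes, chosen by symbol from the 27685 genes of the deposited gene table: RPL22, RPL22L1, RPL39, RPL39L, RPL26, RPL26L1, RPL7L1, RPS27, RPS27L and RPL36AL. They hold 6 paralogs and 4 of the genes they are copies of, here called parents. The parents of RPL7L1 and RPL36AL, RPL7 and RPL36A, are not in the list and were read from the same tables to complete the 6 pairs. All 10 symbols were found once in the gene table, with 21 of the 63714 listed transcripts. RNA-seq was performed on 1 library of H2087 cells and 1 library of H596 cells. Both are untreated established lines that carry the label lung adenocarcinoma, grown in the same serum-containing RPMI medium. The H2087 library held a total estimated count of 46961500 and the H596 library one of 55387847. With 1 library per cell line no value has a replicate check and no test between the lines was made. The 95% intervals below come from the estimated counts (Wilson method) and cover counting error only.

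A cytosolic ribosome carries about one copy of each ribosomal protein, and most of these proteins are encoded by a single intact gene that every dividing cell transcribes strongly. A few have a second, usually weaker, gene whose protein can in some cases take the parent's place in the ribosome. Whether each listed paralog does so was not examined here. RPL22L1 takes the place of RPL22 in cells that lack it, and RPL22 is known to hold RPL22L1 expression down. RPL39 lines the tunnel through which the new peptide leaves the large subunit, and RPL39L is best known from male germ cells and some tumors. RPL26 sits near the outer end of that tunnel, and RPS27 and RPS27L are zinc finger proteins of the small subunit. The mRNAs of ribosomal protein genes typically begin with a C followed by an unbroken tract of C and T (U in the RNA), the 5' terminal oligopyrimidine tract, through which growth signals control their translation.

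The labels were set against marker genes. The epithelial genes EPCAM, KRT8, KRT18 and CDH1 had FPKM (fragments per kilobase of transcript, scaled to the number of mapped fragments) values of 52.3 to 3607 in H2087 and 59.6 to 536 in H596. The FPKM of NKX2-1, a lung lineage factor, was 109.99 in H2087 against 0.508 in H596, and that of NAPSA, a lung adenocarcinoma marker, 21.9 against 0.0645. SFTPB, a surfactant gene, was at 0.123 and 0, and KRT7, of the same list, at 791 and 608. The 4 squamous markers TP63, KRT5, KRT6A and DSG3 had FPKM values of 0 to 1.48 in H2087 and 33.9 to 106 in H596. The libraries thus differed in lineage markers, and the defining lung adenocarcinoma markers NKX2-1 and NAPSA were near 0 in the library labelled H596. Of markers of other cells, PTPRC, CD3E, MS4A1 and COL1A2 had 0 counts in both libraries, the highest of the 6 stromal and 3 endothelial genes was DCN with 9.77 in H596, and CD68 had 128 in H2087 and 25.6 in H596. What part these differences have in the values below was not tested.

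The pairs differed widely in how alike they are. In the coding sequences of hg19, RPL36AL and RPL36A shared 90.0% of bases and 105 of 106 residues. RPL26L1 and RPL26 shared 84.2% of bases and 143 of 145 residues, and RPS27L and RPS27 shared 78.0% of bases and 81 of 84 residues. RPL39L and RPL39 shared 94.9% of bases and 47 of 51 residues. RPL22L1 and RPL22 were more distant, with 70.3% of aligned residues in common, and RPL7L1 and RPL7 had 42.9%. The coding sequences of the RPL39 and RPS27 pairs are shown because each pair is of equal length and the pairs differ in what their base differences do to the protein. In RPL39L 8 bases differ, in 7 codons, and 3 of these codons keep the residue. In RPS27L 56 bases differ, in 48 codons, and 45 of these keep the residue. RPL39L thus has few differences of which most alter the protein, and RPS27L many differences that nearly all leave it as it is. Capitals mark the bases in the paralog that differ from its parent.
RPL39: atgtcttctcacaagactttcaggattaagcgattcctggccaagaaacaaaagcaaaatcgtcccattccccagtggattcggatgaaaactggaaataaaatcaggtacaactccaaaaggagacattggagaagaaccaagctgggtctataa
RPL39L: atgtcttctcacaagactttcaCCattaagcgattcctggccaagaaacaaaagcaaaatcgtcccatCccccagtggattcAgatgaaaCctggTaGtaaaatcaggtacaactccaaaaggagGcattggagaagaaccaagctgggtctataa
RPS27: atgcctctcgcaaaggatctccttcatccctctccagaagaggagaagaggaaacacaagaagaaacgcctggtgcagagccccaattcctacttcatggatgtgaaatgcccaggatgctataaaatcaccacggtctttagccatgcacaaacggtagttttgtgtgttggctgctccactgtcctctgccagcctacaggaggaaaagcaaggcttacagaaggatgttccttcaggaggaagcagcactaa
RPS27L: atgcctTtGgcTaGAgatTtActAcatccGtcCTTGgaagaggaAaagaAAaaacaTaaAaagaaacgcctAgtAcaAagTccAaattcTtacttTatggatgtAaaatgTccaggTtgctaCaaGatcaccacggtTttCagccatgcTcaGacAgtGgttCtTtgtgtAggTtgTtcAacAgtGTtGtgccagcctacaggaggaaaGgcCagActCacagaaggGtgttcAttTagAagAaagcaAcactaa

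These differences bear on how well reads can be assigned. Windows of 50 bases of each coding sequence were searched for exact copies elsewhere in the hg19 genome, where processed pseudogenes of ribosomal protein genes are common. Untranslated parts of the transcripts were not searched, although FPKM covers whole transcripts. The coding sequence has 747 bases in RPL7, whose transcript has 837. It has 387 of 2085 in RPL22, 156 of 753 in RPL39L and 768 of 3806 in the coding transcript of RPL7L1. The shares below hold for the coding sequences only. For RPL39L and RPS27L, 0 of 107 and 0 of 206 windows had a copy elsewhere. For their parents RPL39 and RPS27, all 107 and all 206 windows had one, over 9 and 12 places in the genome. All 272 windows of RPL36A, 99.7% of those of RPL7, 88.2% of RPL22 and 57.3% of RPL26 were also found elsewhere. Among the paralogs the share was 68.4% in RPL7L1, 50.1% in RPL26L1, 37.1% in RPL36AL and 4.69% in RPL22L1. Only RPL36AL and RPL36A had windows in common with each other, 14 of 272. Near copies do not enter these shares. The longest stretch that RPL39L and RPL39 share is 44 bases, just short of a window, and that of RPS27L and RPS27 is 20. The assignment of reads with several possible positions is not given in the sources used here, so the parents' values, and with them the ratios, carry an uncertainty that the intervals leave out. RPL21, a ribosomal protein gene singled out after its values were seen, had copies of all 434 windows, at 61 places, and was listed with 19 counts in H2087 and 21 in H596. RPL39, RPS27 and RPL36A, whose windows were likewise all copied, had between 15638 and 37169 counts. The part of copies in these values was not tested.

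The starts of the genes also fell into kinds. The sequences below, from RefSeq (GRCh38.p14), run from 18 bases before the annotated first base to 12 bases from it onward, and capitals mark an unbroken run of 8 or more C or T on the sense strand within 10 bases of the start, as far as it lies in the window. Such a run stands at 15.2% of the 35116 RefSeq starts of all genes and at 53 of the 73 starts listed for 58 of the other cytosolic ribosomal protein genes (72.6%).
RPL22, chr1:6199584-6199613, minus strand: gcgtagttcgctcaCCTCCCTTTCTaactc
RPL22L1, chr3:170870184-170870213, minus strand: ccgcgcggccgtagCTTCCTCTCTgctctc
RPL39, chrX:119791619-119791648, minus strand: tcgttcttccgccagCTTCCCTCCTCTTCC
RPL26, chr17:8383182-8383211, minus strand: cggaagcagcgtgtagTTCTCTTCCCTTTT
RPL26L1, chr5:172958711-172958740, plus strand: ggcagtcttccaggggtcggcgaacgaaac
RPL7L1, chr6:42879598-42879627, plus strand: cgccggaagtgcggcgccgtagctaggagc
RPS27, chr1:153990744-153990773, plus strand: aggatttccgctttcgCTCCTTTCCggcgg
RPS27L, chr15:63157466-63157495, minus strand: cggaagttgatgccgagcgcagatcgcttg
RPL36A, chrX:101390993-101391022, plus strand: ccgtttgcctcgcggTTTCTTTCTTTCCgc
RPL36AL, chr14:49620615-49620644, minus strand: cgcctgTTTCTTCCCTTTCCTgttaggcga

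All 5 parents shown have such a run, from 9 bases in RPS27 to 22 in RPL39, which runs past the end of the window shown, and begin with C. RPL36AL, with a run of 15, and RPL22L1, with one of 10, also have such a run and begin with C. These lengths count bases on both sides of the start. In RPL36AL most of the run lies before the annotated first base, and from that base on the sequence reads CCTG. The tract from the first base on is longer in each parent shown. RPL26L1, RPL7L1 and RPS27L have no such run: their longest runs near the start are 6, 2 and 3 bases, and a further annotated start of RPL26L1 has 3. RPL39L and RPL7 had no entry. A run is a description of the letters at an annotated start, and nothing on translation was measured here.

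In both lines each paralog was listed below its parent. Among the parents in the list, RPL26 stood at 2415 FPKM in H2087 against 1352 in H596, RPS27 at 2141 against 1535, and RPL22 at 273 against 177. RPL39 alone of these was higher in H596, at 806 in H2087 against 994. Of the parents outside the list, RPL7 was at 2175 and 1145 and RPL36A at 371 and 302. RPL36AL stood with the parents, at 286 in H2087 and 219 in H596, above RPL22 in both libraries. The other 5 paralogs lay below an FPKM of 100, the level that the study used to pick highly expressed genes, in both libraries. In 3 of them the FPKM was lower in H596: RPL26L1 was at 89.8 in H2087 against 38.5, RPL39L at 59.9 against 17.3, and RPL22L1 at 15.8 against 5.60. In the other two it was higher in H596: RPL7L1 was at 44.2 in H2087 against 50.7, and RPS27L at 20.4 against 27.5. The same 5 of the 10 genes, the 4 parents and RPL36AL, were at or above 100 in H2087 and in H596. In TPM, where the values of a library sum to a fixed total, the same threshold took in 7 genes in H2087, with RPL26L1 (192) and RPL39L (128), and 6 in H596, with RPL7L1 (123). No neighbours in the order of the 10 levels had overlapping counting intervals in either library; the closest were RPL36AL (280.2 to 293) and RPL22 (269.9 to 276) in H2087. The order itself differed between the lines: RPL39L was the second highest of the 5 low paralogs in H2087 and the second lowest in H596, while RPL7L1 stood in the middle in H2087 and highest in H596. Compared with 72 other cytosolic ribosomal protein genes (those whose mean FPKM reached 1), all 5 low paralogs lay below every one of them in both libraries. RPL21, which this filter left out, was below all 5, at 0.695 FPKM in H2087 and 0.634 in H596.

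**Figure D1:**
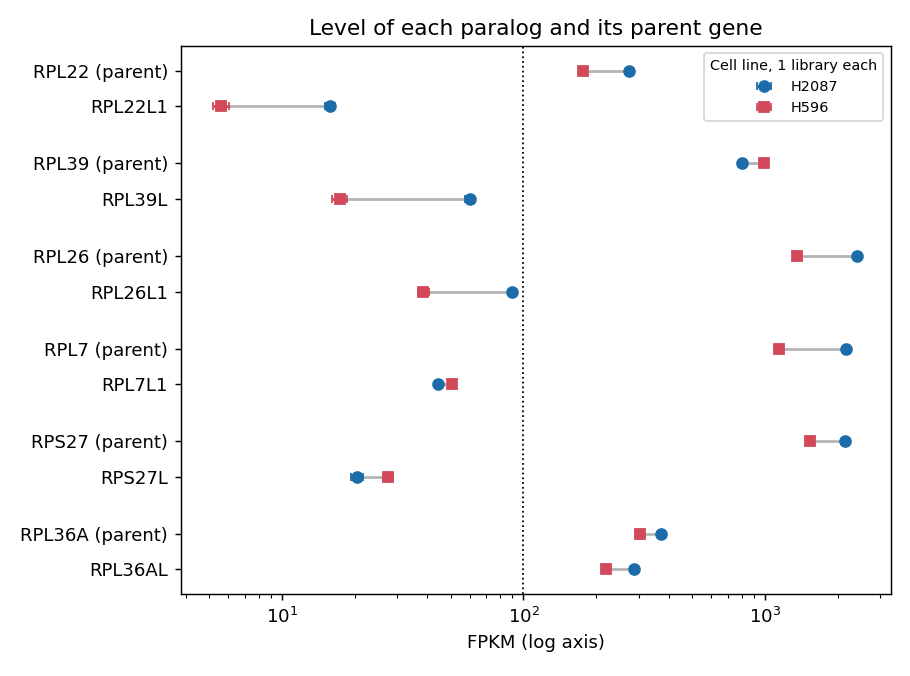
FPKM of each paralog and its parent gene (log axis) in H2087 (circles) and H596 (squares), 1 library each, with 95% counting intervals where these exceed the symbol and a dotted line at an FPKM of 100. RPL36AL lies beside its parent, and the other 5 paralogs lie to the left of the line in both lines.

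The ratio of a paralog to its parent is taken within a library, so that library size cancels. RPL36AL was the highest, with 0.771 of the FPKM of RPL36A in H2087 (95% interval, 0.751 to 0.793) and 0.726 in H596 (0.706 to 0.746). The other 5 ratios of FPKM were below 0.08. RPL39L had 0.0743 of the FPKM of RPL39 in H2087 (0.0710 to 0.0777) and 0.0175 in H596 (0.0162 to 0.0188). RPL22L1 had 0.0579 of the FPKM of RPL22 in H2087 (0.0550 to 0.0609) and 0.0316 in H596 (0.0292 to 0.0342). In these pairs the paralog made up 6.91% and 5.47% of the pair's summed FPKM in H2087, and 1.72% and 3.06% in H596. RPL26L1 had 0.0372 of the FPKM of RPL26 in H2087 (0.0359 to 0.0385) and 0.0285 in H596 (0.0271 to 0.0299). RPL7L1 had 0.0203 of the FPKM of RPL7 in H2087 (0.0199 to 0.0208) and 0.0443 in H596 (0.0434 to 0.0452). RPS27L had the lowest ratio in H2087, 0.00954 of the FPKM of RPS27 (0.00897 to 0.0101), against 0.0179 in H596 (0.0170 to 0.0188). Ratios of estimated counts, which are not corrected for length, were higher for RPL7L1 (0.0931 in H2087 and 0.202 in H596), RPL39L (0.134 and 0.0314) and RPS27L (0.0286 and 0.0537), and lower for RPL36AL (0.499 and 0.460). By the highest single transcript of each gene, RPL22L1 had 0.0151 of RPL22 in H596 and RPL7L1 0.0105 of RPL7 in H2087. For RPL22L1 that transcript is the noncoding NR_135259 in both libraries.

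**Figure D2:**
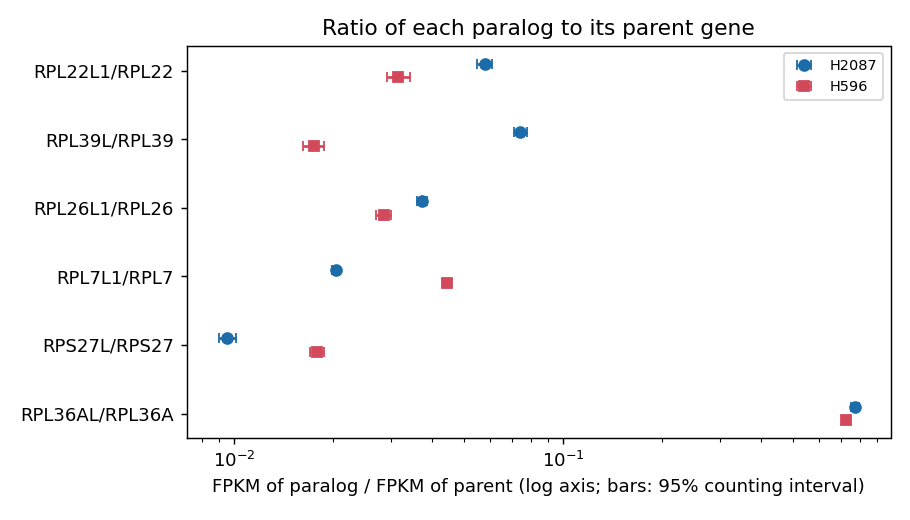
Ratio of the FPKM of each paralog to that of its parent (log axis) in H2087 (circles) and H596 (squares), with 95% counting intervals. The ratio is lower in H596 in 4 pairs and higher in the RPL7L1 and RPS27L pairs.

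Between the lines, 4 ratios of whole-gene FPKM were lower and 2 were higher in H596, and all 6 differed by more than counting error. The largest difference was in the RPL39 pair, whose ratio was 4.25-fold lower in H596, a log2 difference of -2.09 (95% interval, -2.21 to -1.97). Here the genes went apart: RPL39L was 3.45-fold lower in H596 (3.18 to 3.75), while RPL39 was 1.23-fold higher (1.21 to 1.26). The summed FPKM of the pair was 866 in H2087 and 1011 in H596. In the RPL22 pair the ratio was 1.83-fold lower in H596, a log2 difference of -0.87 (-1.01 to -0.74), but with the coding transcripts of RPL22L1 alone it was 0.21 with an interval that includes 0 (-0.01 to 0.42). Both genes were lower there, RPL22 by 1.54-fold (1.51 to 1.57) and RPL22L1 by 2.82-fold (2.57 to 3.10). In the RPL26 pair both were also lower, RPL26 by 1.79-fold and RPL26L1 by 2.33-fold (2.20 to 2.48), with a log2 difference of the ratio of -0.38 (-0.47 to -0.30). The RPL36A pair was nearly even: RPL36AL was 1.31-fold and RPL36A 1.23-fold lower in H596, and the log2 difference of the ratio was -0.09 (-0.14 to -0.03).

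The ratios of RPL7L1 and RPS27L were higher in H596, where the parents were lower and the paralogs slightly higher. The RPL7L1 ratio was 2.18-fold higher, a log2 difference of 1.12 (1.08 to 1.17): RPL7L1 itself was 1.15-fold higher (1.11 to 1.18) and RPL7 1.90-fold lower (1.88 to 1.92). The RPS27L ratio was 1.88-fold higher, a log2 difference of 0.91 (0.79 to 1.02), with RPS27L 1.34-fold higher (1.24 to 1.45) and RPS27 1.40-fold lower (1.37 to 1.42). A further 2 paralogs were read, RPL3L and RPL10L, and both were at or near 0. RPL3L, best known from muscle, had 0 counts in H2087, where 3 counts would be an FPKM of 0.0409, and 37 counts with an FPKM of 0.421 in H596. RPL10L, best known from testis, had 0 counts in both libraries, where 3 counts would be 0.0774 FPKM in H2087 against 0.0653 in H596. Their parents were strongly expressed, RPL3 at 1466 FPKM in H2087 against 626 in H596 and RPL10 at 324 against 293.

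On the scale of log2(FPKM + 1), H596 minus H2087, 3 of the 10 genes differed at least 2-fold, all of them paralogs lower in H596: RPL39L (-1.73), RPL22L1 (-1.35) and RPL26L1 (-1.20). The call of RPL22L1 was lost without its noncoding transcript: its coding transcripts, chosen after the data were seen, had a summed FPKM of 3.90 in H2087 against 2.92, a log2 ratio of -0.42 with no pseudocount. No listed gene was 2-fold higher. Among the 13048 genes whose mean FPKM over the libraries reached 1, 32.4% differed at least 2-fold in either direction, 14.2% lower and 18.2% higher in H596. The 3 of 10 is therefore near the background for either direction, and with 10 genes the direction cannot be read further. The median difference of all genes examined was 0.12, and 0.01 after TMM scaling (trimmed mean of M-values), so differences are also given relative to it. RPL7L1 differed by 0.19 (0.08 relative to the median), RPL39 by 0.30 (0.18) and RPS27L by 0.41 (0.29). RPL36AL (-0.38), RPS27 (-0.48), RPL22 (-0.62) and RPL26 (-0.84) were at -0.50 to -0.95 relative to the median. In all, 7 of the 10 genes were lower and 3 higher in H596, and the split was the same after TMM scaling and after centring. Of the 13048 genes examined 5852 were lower in H596, and of 72 other cytosolic ribosomal protein genes 64 were. A lower value is therefore not particular to the listed genes. As these are values of bulk RNA, fewer cells of a kind and less RNA per cell cannot be told apart.

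The 73 other cytosolic ribosomal protein genes show the family background. Of the 72 whose mean FPKM reached 1, 22 were at least 2-fold lower in H596, 0 were 2-fold higher and 50 were within 2-fold, with a median of -0.63. Their median FPKM over all 73 was 1031 in H2087 and 653 in H596. The largest differences were those of RPS26 (-1.83; FPKM 287 in H2087 and 80.3 in H596), RPS23 (-1.82; 393 and 111) and RPL5 (-1.70; 1761 and 543). Among the highest were those of RPS19 (0.74; 379 and 632) and RPL15 (0.45; 341 and 467). RPL5, which enters the large subunit together with RPL11 and the 5S rRNA, and RPS26, near the mRNA exit of the small subunit, are essential ribosomal proteins. Set among these 72 differences, RPL39L would rank near the bottom, with 2 genes lower, and RPL22L1 and RPL26L1 in the lower part, with 10 and 18 lower. The rank of RPL22L1 is that of the whole gene, and its coding transcripts alone had a log2 ratio of -0.42 with no pseudocount. RPL39, RPL7L1 and RPS27L would rank near the top, with 69, 68 and 69 lower. The parents RPL22, RPL26, RPS27, RPL7 and RPL36A lay in between, with 24 to 51 lower.

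**Figure D3:**
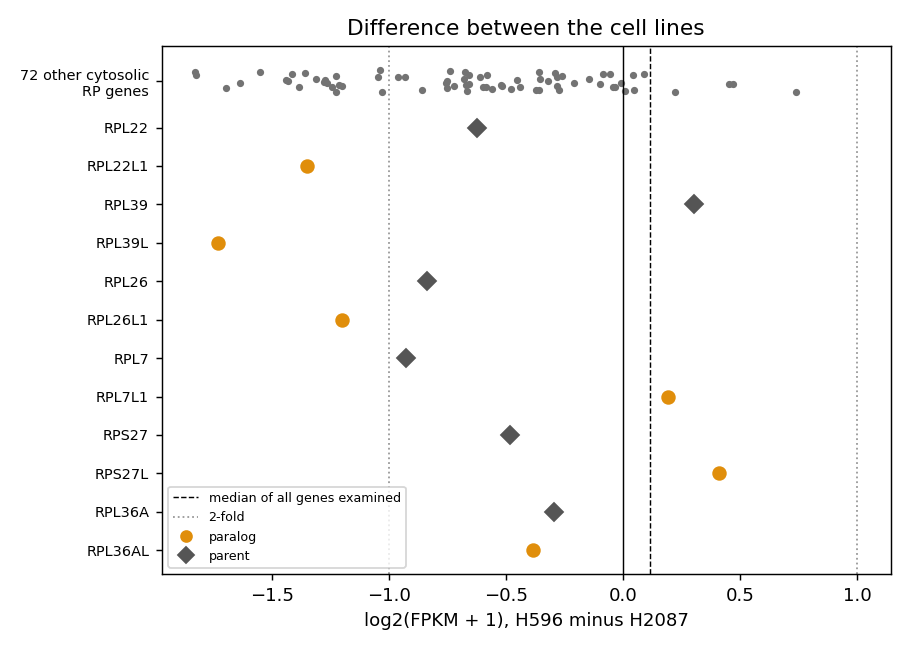
Difference of log2(FPKM + 1), H596 minus H2087, for the 72 other cytosolic ribosomal protein (RP) genes (small points, spread vertically only for display), the parents (diamonds) and the paralogs (circles), with lines at 0, at 2-fold and at the median of all genes examined. By whole-gene values, RPL39L, RPL22L1 and RPL26L1 lie beyond 2-fold on the left, and RPS27L, RPL39 and RPL7L1 lie to the right of 0. RPL22L1 was within 2-fold without its noncoding transcript.

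The transcript table divides some of these values further. RPL22, RPL39, RPL39L, RPS27L and RPL36AL are each listed with 1 transcript, and in RPL26 and RPS27 1 transcript held 97.4% to 99.0% of the gene's FPKM. RPL22L1 is listed with 3 transcripts, and most of its signal in H2087 was assigned to NR_135259, which RefSeq lists as noncoding: 11.9 of 15.8, or 75.3%. In H596 this transcript had 2.68 of 5.60, or 47.8%. Of the coding transcripts, NM_001099645 was at 3.35 in H2087 against 1.46 in H596, and NM_001320451 at 0.549 against 1.46. With the coding transcripts alone, chosen after the data were seen, RPL22L1 had 0.0143 of the FPKM of RPL22 in H2087 (0.0129 to 0.0158) and 0.0165 in H596 (0.0148 to 0.0184). The direction seen for the whole gene was no longer there. Most of the difference in RPL22L1 was thus in reads assigned to the noncoding transcript, with 1158 of 1526 estimated counts in H2087 and 309 of 634 in H596.

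In RPL7L1 the coding transcript NM_198486 was at 22.9 FPKM in H2087 against 36.7 in H596, while its 2 noncoding transcripts had 21.4 together in H2087 and 14.0 in H596. They made up 48.4% of the gene's FPKM in H2087 and 27.5% in H596. With the coding transcript alone the ratio to RPL7 was 0.0105 in H2087 and 0.0321 in H596, 3.05-fold higher in H596 with a log2 difference of 1.61 (1.55 to 1.67). In RPL26L1 the main transcript NM_016093 held 81.8% in H2087 and 73.7% in H596, and all 4 transcripts are coding. Its level was 73.5 in H2087 and 28.4 in H596. How reads were split among overlapping transcripts was estimated by the authors' tool, and the error of that step is outside the intervals. Of overlapping genes, SNORA69 within RPL39 had 5 and 6 counts, LOC100268168 at the start of RPL26L1 22 and 30, and the readthrough RPL36A-HNRNPH2 124 and 395, all far below the counts of the genes they overlap.

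**Figure D4:**
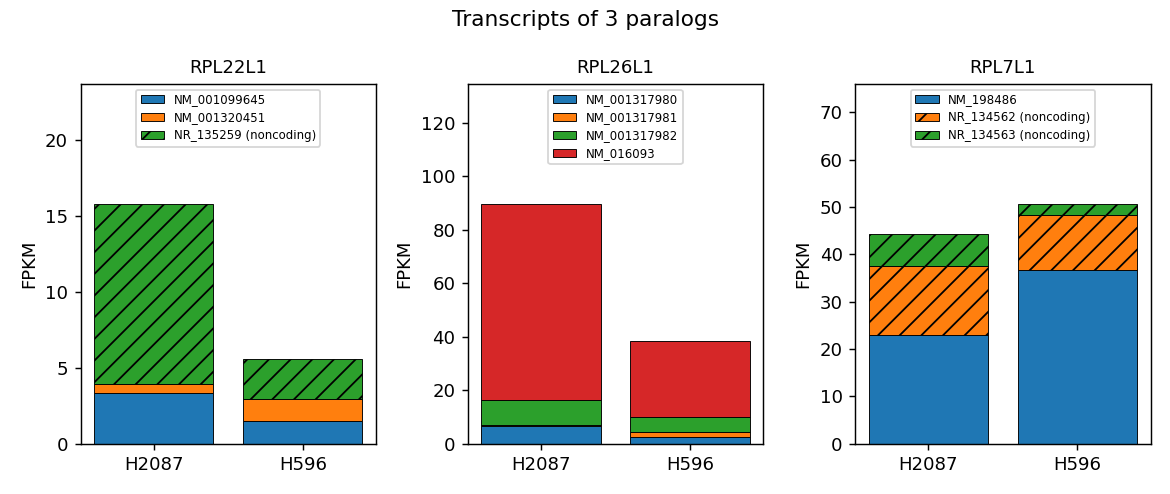
FPKM of the listed transcripts of RPL22L1, RPL26L1 and RPL7L1, stacked for each library, with noncoding transcripts hatched. The hatched part is 75.3% of RPL22L1 in H2087 and 47.8% in H596, and the coding part of RPL7L1 is larger in H596.

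In hg19, RPL22L1 (gene ID 200916) covers 170582665 to 170588045 and RPL39L (116832) 186838739 to 186857311, both on the long arm of chromosome 3. Both were lower in H596, as were 15 and 17 of the 40 neighbours of each. The 40 nearest examined genes around RPL22L1 had a median difference of 0.16 and those around RPL39L 0.26, and only 4 and 3 of the 40 had a lower difference than the gene itself. For RPL22L1 this holds for the whole-gene value. Its coding transcripts alone had a log2 ratio of -0.42 with no pseudocount, which was not set against the neighbours. RPL26L1 (51121), at 172385732 to 172396774 on chromosome 5, differed in the same direction as its surroundings, with a median of -0.73 and 30 of 40 neighbours lower in H596. Its own difference of -1.20 was just beyond the lower quartile of these neighbours (-1.15), and 9 of the 40 had a lower one. RPL7L1 (285855), at 42847354 to 42857634 on chromosome 6, was also higher in H596, but less so than its surroundings: its 40 neighbours had a median of 0.95, none was lower in H596, and only 1 had a lower difference than RPL7L1. RPS27L (51065), at 63445539 to 63449741 on chromosome 15, differed by 0.41, as did the median of its neighbours. RPL36AL (6166), at 50085406 to 50087403 on chromosome 14, differed by -0.38 against -0.03. The listed parents are RPL22 (6146) at 6245080 to 6259679 and RPS27 (6232) at 153963231 to 153964631 on chromosome 1, RPL26 (6154) at 8280834 to 8286568 on chromosome 17 and RPL39 (6170) at 118920467 to 118925622 on chromosome X. They and the parents RPL7 and RPL36A all lay below the median of their neighbours, which was -0.15 around RPL7 and between 0.05 and 0.70 around the others. DNA copy number was not analysed here.

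**Figure D5:**
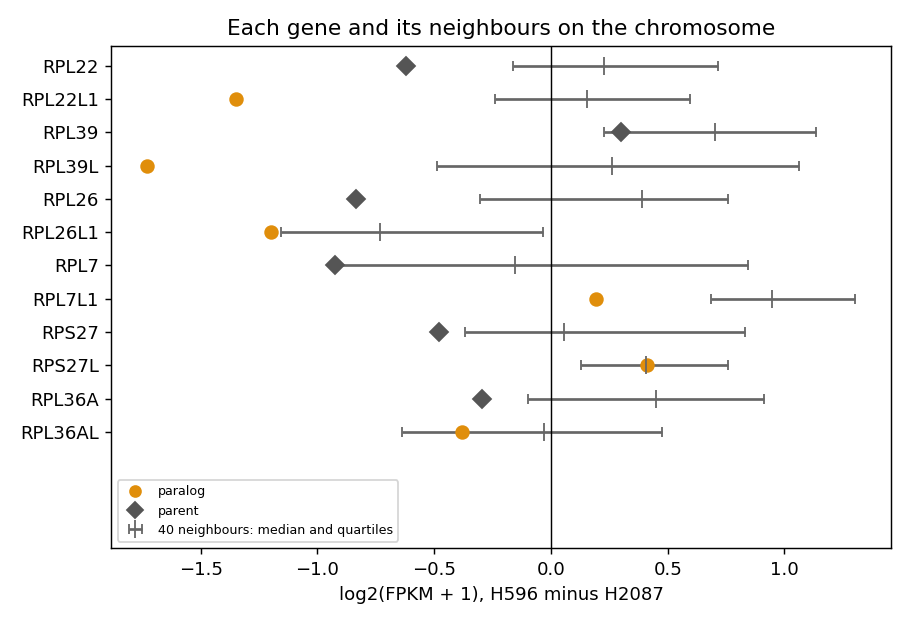
Difference of log2(FPKM + 1), H596 minus H2087, of each paralog (circles) and parent (diamonds), beside the median and quartiles of the 40 nearest examined genes on its chromosome (20 on each side). By whole-gene values, RPL22L1 and RPL39L lie far to the left of the lower quartile of their neighbours, and RPS27L lies on the median of its own. Most of the RPL22L1 difference is in reads assigned to its noncoding transcript.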

How the data were processed

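RNA-seq of 1 H2087 and 1 H596 library was analysed. Libraries were made from total RNA with a stranded mRNA kit. The submitters' processing notes name bcl2fastq 1.8.4, Trimmomatic, HISAT2 2.0.5 (hg19) and StringTie 1.3.3b. Whether counting used strand, and how reads with several positions were treated, is not given in the sources used here. Per gene and per transcript, the authors deposited an estimated count as a whole number and an FPKM value, which divides by transcript length and by library size.

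From these, FPKM ratios of paralog to parent and differences of log2(FPKM + 1), with a pseudocount of 1, were computed. On this scale differences of low genes are understated. Genes whose mean FPKM reached 1 were examined, with a threshold of 2-fold. Intervals are 95% Wilson intervals of estimated counts, or normal intervals on the log scale for a change of ratio. A count of 0 allows up to 3 counts. Only counting error enters these limits, and they are too narrow if both mates of a pair were counted. TMM factors came from edgeR 4.0.16 (R 4.3.3). Coding sequences were read from GRCh37 with GENCODE models and aligned globally with Biopython 1.88. Python 3.11.15 was used. The genes named are the 10 listed genes, their parents, the RPL3 and RPL10 pairs, and the 3 extremes of the list of other ribosomal protein genes in each direction. Some genes and a further gene list that this rule takes in are not reported here. The genes and lists were chosen with earlier results of these data known.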

Additional observations from a re-analysis of the deposited data

How the results depend on the processing

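Between the lines, the direction of all 6 ratio differences was the same from estimated counts, from the highest single transcripts and with a pseudocount of 1. It did not hold in the RPL22 pair with the coding transcripts of RPL22L1 alone (log2 0.21, interval -0.01 to 0.42, against -0.87), an alternative added after seeing the data. In that pair the log2 difference was -1.53 by the highest single transcripts and -0.73 with a pseudocount of 1. The highest transcript of RPL22L1 is the noncoding NR_135259 in both libraries, which also holds most of the whole-gene difference. The -1.53 is therefore no separate check of the direction. Estimated counts are hardly a separate check in any pair, as FPKM is the count divided by length and library size. Each gene of the RPL39 pair has 1 listed transcript, so its highest single transcripts only repeat the whole-gene value (-2.09). By the highest single transcripts the log2 difference was -0.53 in the RPL26 pair and 1.61 in the RPL7 pair. The highest transcript of RPL7L1 is its only coding one in both libraries, so the coding transcript alone gives the same 1.61 by construction. The median ratio over the 6 pairs, 0.0475 in H2087 and 0.0300 in H596, was 0.0745 and 0.0444 from estimated counts, which are not corrected for length, and 0.0373 and 0.0198 by the highest single transcripts. At 1.5-fold, 5 of the 10 genes, 40 of the 72 other ribosomal protein genes and 7124 of the 13048 genes examined differed, against 3, 22 and 4226 at 2-fold. The 5 of 10 is thus also near the background. At a mean FPKM of at least 10, 1986 genes differed at least 2-fold, out of a smaller set whose size is not given here. The pseudocount of 0.1, TMM scaling and centring left the count of 3 as it was, and without its noncoding transcript RPL22L1 was within 2-fold. No paired analysis was possible because only 1 library was made per line, which also left no replicate to omit. Depth limits RPL3L and RPL10L, and for RPL22L1 the assignment of reads to transcripts moved the ratio by more than its counting interval.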
